A study of Mus musculus with 17 samples.

Results

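The genes described here encode the CREB family of transcription factors (Creb1, Crem, Atf1), the stress-responsive relatives Atf3 and Atf4, the acetyltransferase coactivators CBP (Crebbp) and p300 (Ep300), and the CREB-regulated transcription coactivators Crtc1, Crtc2 and Crtc3. They are 10 of 21755 protein-coding genes of the GENCODE annotation of mm10, and they were chosen by name. Open chromatin was measured by ATAC-seq, in which the transposase Tn5 cuts accessible DNA, in NeuN+ (neuronal) nuclei sorted from the bilateral nucleus accumbens of C57BL/6 mice aged 52 to 54 days. Peaks of all 17 libraries were merged into regions, and a region was assigned to a gene if it overlapped the gene body or the 10 kb on either side of it. Of 220 such merged regions, 92 were called in at least 2 libraries of some group and were kept, of 147420 kept in the whole data set, and the other 128 were set aside.

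The libraries fall into 6 groups by sex, estrous stage and treatment. Control and cocaine groups of diestrus females hold 3 libraries each, as do those of proestrus females, while males have 3 control and 2 cocaine libraries. Cocaine was given as 1 intraperitoneal dose of 10 mg/kg and tissue was taken 1 h later. Control mice received no cocaine and served as the time before the drug, so an effect of the injection and handling cannot be told apart from an effect of cocaine. Each library pools tissue of 3 mice, so its value is already an average. The p-values of the enrichment comparisons below rest on the spread between such pools, shared over the 6 groups. In limma the spread of each region was also drawn towards that of regions with similar enrichment. The p-values of Fisher's exact test come from counts of libraries with a call and measure no such spread. Diestrus cocaine library 2 was placed in its group by its title because its stage is not otherwise labelled, and the proestrus cocaine libraries carry the numbers 1, 2 and 4.

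CREB1 is a leucine zipper protein that binds the cAMP response element (CRE) and is activated when kinases downstream of dopamine receptors, calcium and growth factors phosphorylate it. Phosphorylated CREB recruits CBP and p300, which acetylate histones, while the CRTC proteins move from the cytoplasm to the nucleus on dephosphorylation and assist CREB without needing its phosphorylation. In the nucleus accumbens this pathway is known for its activation by psychostimulants, and Crem holds an internal promoter that produces the short repressor ICER, itself a CREB target.

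Sequences are shown for the regions on which the results turn. RefSeq promoter windows (GRCm38.p6, 250 bases before to 50 bases after the start) were available for 8 members. Of these windows, only those of Atf1, Atf3 and Atf4 hold the short CRE motif TGACG. The 2 windows of 201 bases are centred on the highest summit of the Atf1 region lost after cocaine in females and of the Creb1 region gained after cocaine in diestrus. Capitals mark TGACG, which reads CGTCA where the motif lies on the opposite strand. Each sequence is written 5′ to 3′ on the strand given.
Atf1 promoter, chr15:100227609-100227908, plus strand: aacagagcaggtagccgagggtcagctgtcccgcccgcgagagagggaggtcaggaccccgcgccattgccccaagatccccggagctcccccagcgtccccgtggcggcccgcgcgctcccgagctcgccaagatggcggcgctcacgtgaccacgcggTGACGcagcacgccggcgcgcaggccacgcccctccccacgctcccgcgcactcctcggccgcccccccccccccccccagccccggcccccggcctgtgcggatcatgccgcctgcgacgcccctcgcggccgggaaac
Atf3 promoter, chr1:191183284-191183583, minus strand: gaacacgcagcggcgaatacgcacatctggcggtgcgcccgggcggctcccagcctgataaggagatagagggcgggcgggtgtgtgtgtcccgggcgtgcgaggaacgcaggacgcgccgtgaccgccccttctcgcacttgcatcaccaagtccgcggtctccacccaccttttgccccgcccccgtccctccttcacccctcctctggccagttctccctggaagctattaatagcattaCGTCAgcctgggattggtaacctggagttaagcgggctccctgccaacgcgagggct
Atf4 promoter, chr15:80254934-80255233, plus strand: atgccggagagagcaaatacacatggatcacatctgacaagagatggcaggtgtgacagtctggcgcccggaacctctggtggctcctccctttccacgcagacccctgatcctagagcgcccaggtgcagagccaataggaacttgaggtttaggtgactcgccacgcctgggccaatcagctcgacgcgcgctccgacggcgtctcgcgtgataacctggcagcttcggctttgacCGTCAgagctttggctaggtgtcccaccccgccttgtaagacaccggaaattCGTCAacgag
Atf1 lost region, chr15:100230717-100230917, plus strand: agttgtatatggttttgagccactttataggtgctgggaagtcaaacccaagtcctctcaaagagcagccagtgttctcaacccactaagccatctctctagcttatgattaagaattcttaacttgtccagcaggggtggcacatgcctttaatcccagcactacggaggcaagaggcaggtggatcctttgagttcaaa
Creb1 gained region, chr1:64610067-64610267, plus strand: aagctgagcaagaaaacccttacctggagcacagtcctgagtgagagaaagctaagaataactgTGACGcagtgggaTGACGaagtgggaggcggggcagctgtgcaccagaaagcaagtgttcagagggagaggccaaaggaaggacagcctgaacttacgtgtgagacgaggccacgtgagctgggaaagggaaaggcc

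Among the 32851 RefSeq mouse promoters used, which leave out chromosome 18, 20.8% hold TGACG on either strand. The full CRE palindrome TGACGTCA, of which TGACG is a part, is in 1.79%. The full palindrome was in none of the 8 member promoters, which says only that these letters are not in those windows. Of the 92 kept regions of the members, 9 had TGACG within 100 bases of their summit (9.78%, against 9.59% of all kept regions). The palindrome was in 0 of the 92 (against 0.498%). The 9 included the promoter regions of Crem (TGACG at 2 places), Atf1, Atf4, Crebbp and Ep300 (1 place each), and not that of Atf3. The AP-1 motif, searched as TGACTCA or TGAGTCA, lay in 10 of the 92 windows (10.9%), against 10.1% of all. The Creb1 gained window holds TGACG at 2 places and the Atf1 lost window at none. In the Atf1 lost window 87.6% of the bases are lower case in the reference, that is, annotated as repeats.

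Libraries held 75458 to 157005 peaks covering 42.2 to 107 Mb, with a background pileup per library of 6.26 to 9.55 reads. Depth in reads was not used here, because the deposited peaks carry pileups and not counts per region. The fewest peaks were in the male cocaine libraries, 75458 and 87707, and the most in diestrus cocaine library 1, which stood apart from the other diestrus cocaine libraries (99789 and 111834). The promoters of 4 of 4 neuronal and 6 of 6 medium spiny neuron marker genes were called in all 17 libraries, against 0 of 17 promoters of markers of astrocytes, oligodendrocytes, their precursors, microglia and endothelium. Among the latter, Mbp was called in 12 libraries and Aif1 in 6. These are sorted nuclei measured in bulk, so fewer nuclei of a type and less accessible chromatin per nucleus cannot be told apart.

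Regions of the members were of 2 kinds. The 26 regions called in all 17 libraries (28.3% of 92, against 25% of all kept regions) had median fold enrichments between 3.49 and 39.5, with a median of 9.44, and a median width of 2928 bp. Fold enrichment is the ratio of a peak's summit pileup to the background, which was a single value in each library. The value of a region in a library is that of its highest peak. The other 66, called in some libraries and not in others, were weaker on the whole: their median fold enrichments lay between 2.37 and 4.72 with a median of 2.82, and their median width was 644 bp. The ranges overlapped at 4 regions of the first kind, in Atf3, Crebbp, Crtc1 and Crtc3, with medians of 3.49, 4.28, 4.58 and 4.59. By place, the 92 comprised 10 promoters, the internal Crem promoter, 1 region at another Atf1 start site, 45 regions in introns, 7 in exons, 12 upstream and 16 downstream. All 10 promoters and the internal Crem promoter were in the first kind, as were 53.2% of the promoters of protein-coding genes. With the 5′ end of each gene in place of its principal start, 9 of 10 were. The 5′ end of Atf3 had no kept region within 1 kb.

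The genes differed in how many regions they held. Creb1 (chr1:64532645-64604548, plus strand) had 19 kept regions and Crtc1 (chr8:70382355-70439579, minus strand) had 17. Crebbp (chr16:4081328-4213997, minus strand) had 12, followed by 9 each at Atf1 (chr15:100227819-100261244, plus strand) and Crtc3 (chr7:80586627-80688877, minus strand). Crtc2 (chr3:90254163-90264125, plus strand) had 8, and Ep300 (chr15:81585351-81652077, plus strand) had 6. Atf3 (chr1:191170296-191218039, minus strand) had 5, Crem (chr18:3266048-3337748, minus strand) also 5, and the short gene Atf4 (chr15:80255184-80257541, plus strand) 2. Per 100 kb of searched sequence, Crtc2 was the densest with 26.7 regions and Crem the sparsest with 5.45, although the gene bodies of Crem and Creb1 are nearly equally long (71.7 and 71.9 kb).

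Promoter enrichment ranged widely among the members. Over 17 libraries the median fold enrichment was highest at Atf4 (39.5, range 27.3 to 52.5), which encodes a factor of the integrated stress response, and at Creb1 (34.9, range 27.1 to 54.3). The ranges of these neighbours overlapped. Ep300 (24.8, range 20.8 to 35.97), Crem (24.5, range 19.9 to 33.1), Crtc1 (21.8, range 15.6 to 30.1) and Crtc2 (21.5, range 14.1 to 31.1) followed, again with overlapping ranges. Crebbp (16.4, range 13.2 to 25.2) and Atf1 (13.9, range 11.5 to 19.7) came next, both above the median of 13.3 for all promoters called in every library. The lowest medians were at Crtc3 (7.39, range 3.79 to 13.3), the internal Crem promoter (7.26, range 4.33 to 10.4) and Atf3 (5.48, range 4.01 to 8.68), a gene known to be induced by stress and activity. The Crtc3 value is that of a broad region whose highest summit lies 2490 bp upstream of the start, and its peaks with a summit within 1 kb of the start had a median of 5.03.

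**Figure D1:**
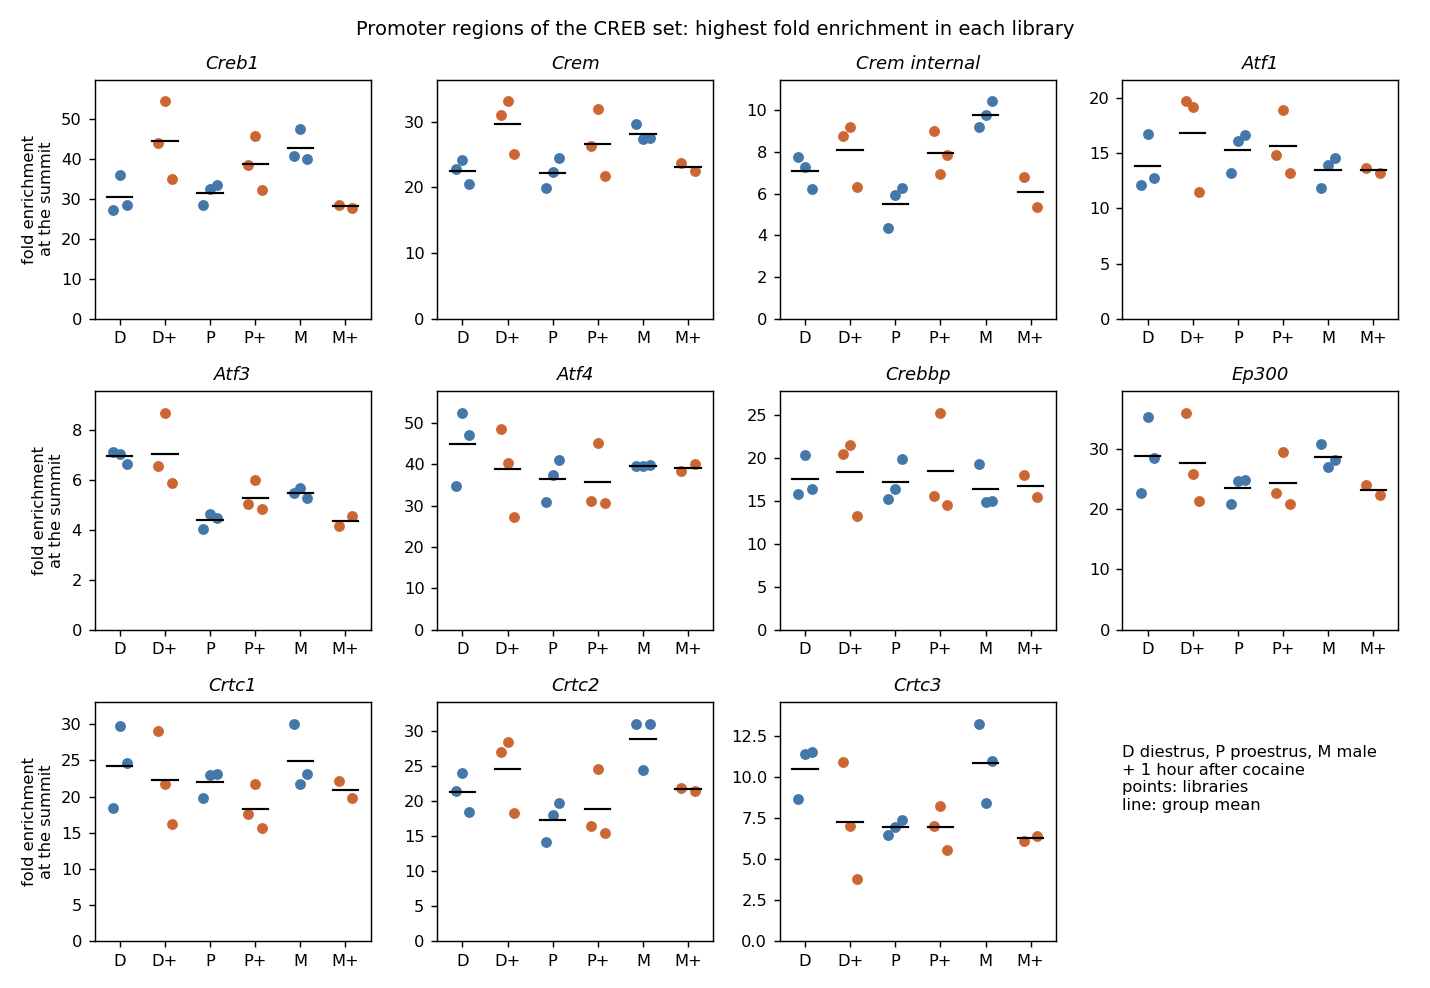
Fold enrichment (ratio of summit pileup to the background of the library, vertical axes) at the 10 member promoters and the internal Crem promoter. Each panel has 1 point per library and a line at each group mean (D diestrus, P proestrus, M male, a plus sign for cocaine). The vertical scale differs between panels. Atf4 and Creb1 reach the highest values, and male cocaine points lie below all male controls at Creb1, Crem, the internal Crem promoter, Atf3, Ep300, Crtc2 and Crtc3 before centring.

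The strongest regions outside promoters lay in or near Crtc1, Atf3 and Creb1. An intronic region of Crtc1 (chr8:70413088-70421057) was called in all 17 libraries with a median fold enrichment of 13.4, nearer to the promoters than to the other introns. A region upstream of Atf3 (chr1:191223322-191225326), at -41131 bp from its principal start, had a median of 9.84, which is above the median of the Atf3 promoter itself. The region upstream of Creb1 (chr1:64521549-64524706) had a median of 6.92, that upstream of Ep300 (chr15:81576831-81577464) 5.35 and the Atf1 intron (chr15:100251022-100252023) 5.19. The intronic regions of Crtc3 (chr7:80654584-80656353) and Crebbp (chr16:4160355-4161136) had medians of 4.59 and 4.28. These were all called in every library, whereas the strongest Crem intron region was called in 2 libraries and the strongest region downstream of Crtc2 in 9. Atf4 had no region outside promoters of its own or of other genes.

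To see which member promoters changed with cocaine, log2 fold enrichment was compared with limma over the 36847 regions called in every library, after each library was centred on its own median. A difference is thus relative to the typical region of that library. The Creb1 promoter rose in diestrus. Its fold enrichment was 27.1, 35.8 and 28.5 in the diestrus controls and 44.0, 54.3 and 34.9 after cocaine, so that 1 cocaine library lay within the control range. The centred difference was 0.51 on the log2 scale (SE 0.15, 95% confidence interval 0.21 to 0.81, limma adjusted p = 0.0241). In proestrus the same promoter gave 28.5, 32.4 and 33.5 in controls and 38.6, 45.7 and 32.1 after cocaine, a difference of 0.19 (limma adjusted p = 0.483). In males it gave 40.7, 47.4 and 39.8 in controls against 28.4 and 27.8 after cocaine. The male cocaine values lay below all male controls, but the whole library shifted with them: library medians fell by 0.48 on the log2 scale in males, and the centred difference was -0.11 (limma adjusted p = 0.700).

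Crtc3, which encodes a CRTC coactivator, was lower at its promoter region in diestrus. Values were 8.65, 11.4 and 11.5 in the controls and 10.9, 7.04 and 3.79 after cocaine, with 1 cocaine library inside the control range. The centred difference was -0.67 (SE 0.19, 95% confidence interval -1.05 to -0.30, limma adjusted p = 0.0193). Over the mean of the 3 strata Crtc3 was also lower, by -0.36 (SE 0.11, limma adjusted p = 0.0265), a call that held in 9 of 17 fits with 1 library left out. It was lost without diestrus control 2 or 3, diestrus cocaine 3, proestrus cocaine 4, male control 1 or 3, or either male cocaine library, over limma adjusted p of up to 0.0888. With the peaks whose summit lay within 1 kb of the start in place of the highest peak, the diestrus difference was -0.13 (limma adjusted p = 0.740) and the mean over strata turned to 0.10 (limma adjusted p = 0.635). Neither diestrus call held in a fit of the diestrus libraries alone, with limma adjusted p of 0.0717 for Creb1 and 0.0647 for Crtc3. When each of the 6 diestrus libraries was left out in turn, each call held in 2 of 6 fits. Creb1 lost it without control 1, control 3, cocaine 2 or cocaine 3, over limma adjusted p of 0.00319 to 0.174. Crtc3 lost it without control 2, control 3, cocaine 2 or cocaine 3, over 0.000384 to 0.218.

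The internal Crem promoter, which gives rise to ICER, had values of 4.33, 5.92 and 6.26 in proestrus controls and 9.01, 6.95 and 7.85 after cocaine. The groups did not overlap, but the centred difference of 0.43 did not pass the threshold (limma adjusted p = 0.114). In diestrus it had 7.75, 7.26 and 6.23 in controls against 8.78, 9.18 and 6.32 after cocaine, a difference of 0.16 (limma adjusted p = 0.533). In males it had 9.18, 9.78 and 10.4 against 6.78 and 5.35, with no overlap and in the opposite direction, and the centred difference was -0.22 (limma adjusted p = 0.461). The male effect minus the mean female effect was -0.51 (SE 0.21, limma adjusted p = 0.0823). Without proestrus cocaine 2 the proestrus difference was 0.51 and passed (limma adjusted p = 0.0484), as did the difference between the sexes, at -0.55 (limma adjusted p = 0.0430). The Crem promoter proper came close to the threshold over the mean of strata, at 0.24 (SE 0.08, limma adjusted p = 0.0501).

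Across the 26 tested member regions, the calls in each stratum were few and near or below the share among all regions. In diestrus 1 was higher (Creb1 promoter, 3.85%, against 6.16% of all 36847 regions) and 1 lower (Crtc3, against 4.9%). In proestrus limma called 0 higher (against 1.55%) and 0 lower (against 1.85%), with 1 and 3 at an unadjusted p under 0.05. In males 1 was higher (against 5.56%) and 0 lower (against 4%, with 1 at an unadjusted p under 0.05). Over the mean of strata 0 were higher (against 7.95%, with 4 at an unadjusted p under 0.05) and 1, Crtc3, was lower (against 5.87%). The median difference of the members was -0.03 in diestrus, -0.07 in proestrus and 0.15 in males, beside 0.01, -0.02 and 0.09 over all tested regions.

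**Figure D2:**
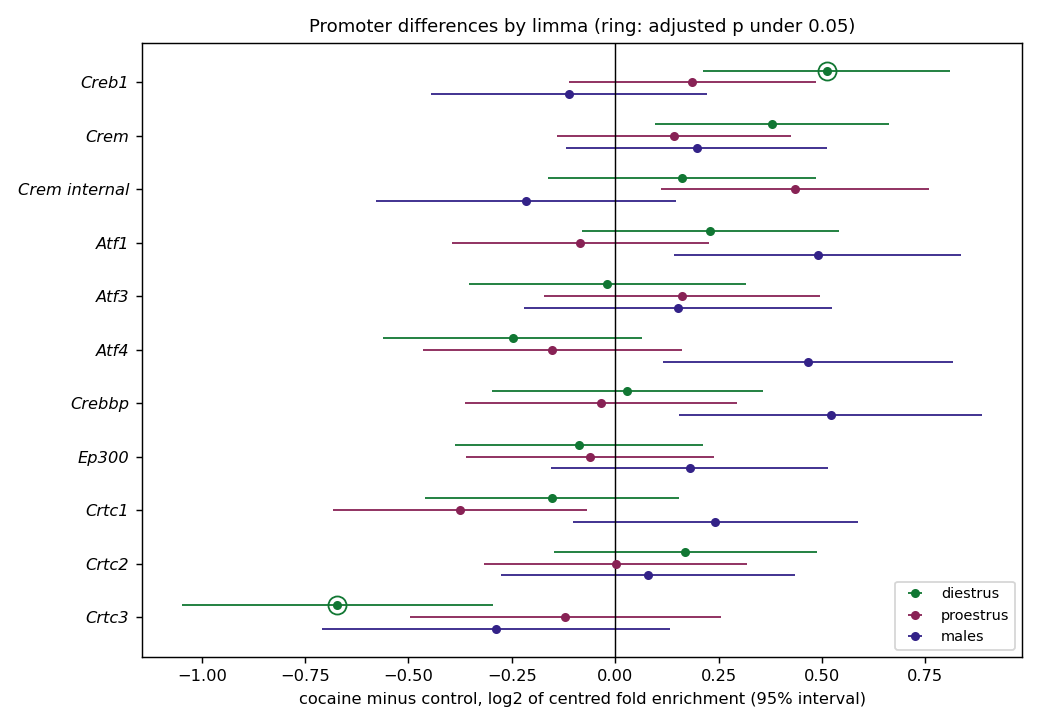
Centred log2 difference in fold enrichment, cocaine minus control, at the member promoters in diestrus, proestrus and males, with 95% confidence intervals from limma and rings at an adjusted p under 0.05. Rings stand only at Creb1 (0.51) and Crtc3 (-0.67) in diestrus.

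Whether the cocaine effect differed by sex was tested by an interaction term. The Atf4 promoter was the member promoter that passed. Its fold enrichment was 39.5, 39.5 and 39.7 in male controls and 38.3 and 39.99 after cocaine, 34.9, 52.5 and 47.1 against 48.6, 40.4 and 27.3 in diestrus, and 30.9, 37.4 and 41.0 against 31.0, 45.2 and 30.6 in proestrus. Its values hardly moved in males before centring (-0.02), while the typical region fell, and the centred male effect minus the mean female effect was 0.67 (SE 0.20, 95% confidence interval 0.25 to 1.08, limma adjusted p = 0.0221). Before centring the same difference was 0.12. The call was lost without male control 2, male cocaine 1 or male cocaine 2 (limma adjusted p = 0.0501, 0.0749 and 0.129).

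A region just downstream of Crebbp (chr16:4076587-4080324), at the promoter of the neighbouring gene Trap1, was the other. In males it had 15.7, 11.7 and 13.9 in controls and 15.7 and 14.99 after cocaine, a centred difference of 0.65 (SE 0.19, limma adjusted p = 0.0247) that was 0.17 before centring. That call was lost without male control 2, male control 3 or either male cocaine library (limma adjusted p of up to 0.169). In diestrus it had 13.4, 16.3 and 17.1 in controls and 18.6, 17.7 and 8.27 after cocaine, and in proestrus 10.98, 15.1 and 15.4 against 10.9, 16.3 and 10.8. Control and cocaine values overlapped in all 3 strata. The male effect minus the mean female effect was 0.86 (SE 0.22, 95% confidence interval 0.40 to 1.31, limma adjusted p = 0.00887), and 0.31 before centring. It was lost without either male cocaine library (limma adjusted p = 0.0604 and 0.0536). The markers Drd2 (1.03), Ppp1r1b (0.75) and Rbfox3 (0.73) were higher in the same contrast, and their part in these calls was not tested. In this contrast 2 of 26 member regions were higher (7.69%, against 11.9% of all) and 0 lower (against 6.53%, with 2 at an unadjusted p under 0.05). The proestrus effect minus the diestrus effect gave 0 higher (against 0.00543%) and 0 lower (against 0%), with 1 and 2 at an unadjusted p under 0.05.

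Among controls, males differed from females at 4 member regions, and neuronal marker promoters differed with them. Of 6 medium spiny neuron markers 3 were lower in males, Drd1 (-0.47), Drd2 (-0.66) and Ppp1r1b (-0.68), and 0 higher, and of 4 neuronal markers Rbfox3 was lower (-0.49) and Stmn2 higher (0.36). Their part in the member calls was not tested. The internal Crem promoter was higher in males by 0.37 (SE 0.14, limma adjusted p = 0.0491), with male control values of 9.18 to 10.4 above all 6 female controls, which ran from 4.33 to 7.75. An intronic Atf3 region (chr1:191172390-191172882) was higher by 0.47 (SE 0.14, limma adjusted p = 0.0163), with 5.61, 5.23 and 5.49 in males against 2.90 to 3.49 in the female controls. The Atf1 promoter was lower by -0.41 (SE 0.13, limma adjusted p = 0.0229) and the Crebbp promoter by -0.38 (SE 0.14, limma adjusted p = 0.0443), although their uncentred values overlapped between the sexes. Library medians of male controls were 0.29 higher on the log2 scale, and before centring the 2 lower promoters differed by -0.11 and -0.08. With 1 control library left out in turn, the internal Crem and Crebbp promoters passed in 3 of 9 fits and the Atf3 intron and Atf1 promoter in 7 of 9. The Atf3 intron was lost without male control 2 or 3, and Atf1 without diestrus control 2 or male control 1. The internal Crem promoter and the Crebbp promoter were each lost without diestrus control 2 or 3, proestrus control 2 or male control 2 or 3, the former also without proestrus control 1 and the latter without proestrus control 3. The 2 higher and 2 lower calls were 7.69% each of the 26 regions, against 10.5% and 14.4% of all. Between proestrus and diestrus controls limma called 0 higher (against 0.103%) and 0 lower (against 0.214%), with 3 and 3 at an unadjusted p under 0.05.

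Calls of the weaker regions were then counted in each library. Of the 66 regions not called in every library, diestrus controls held 31, 35 and 32 and the diestrus cocaine libraries 39, 16 and 8. Proestrus controls held 35, 29 and 36 and the cocaine libraries 15, 19 and 15, with no overlap. Male controls held 33, 20 and 25 and the cocaine libraries 8 and 4, again with no overlap. The mean share called was 50.5% ± 5.74 (SD, n = 3) in proestrus controls and 24.7% ± 3.50 (SD, n = 3) after cocaine. In males it was 39.4% ± 9.94 (SD, n = 3) and 9.09% ± 4.29 (SD, n = 2), and in diestrus 49.5% ± 3.15 (SD, n = 3) and 31.8% ± 24.4 (SD, n = 3).

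The same share over all 110573 such regions fell from 57.7% to 19.1% in males and from 47.3% to 39.8% in diestrus. In proestrus it was 37.6% ± 3.52 in controls and 42.5% ± 4.07 after cocaine (SD, n = 3 each), with overlapping libraries. In proestrus the members' mean share was thus lower after cocaine while that of all variable regions was not, a difference that was described and not tested. Among the 66952 of them near protein-coding genes whose promoter was called in every library, the proestrus shares were 42.9% and 42.7%. The filter bears on these shares, because a region had to be called in 2 libraries of some group to be kept. Of the 66 member regions, 13 (19.7%, against 6.19% of all variable regions) reached 2 calls only in proestrus controls, and for these a lower share after cocaine is built in. Among the 51 member regions kept through a group outside proestrus, the proestrus controls held 27, 20 and 25 and the cocaine libraries 12, 16 and 12. These are means of 47.1% ± 7.07 and 26.1% ± 4.53 (SD, n = 3 each), again with no overlap, beside 36.4% and 43.4% over the 98127 regions of all genes kept in that way.

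The libraries also differed in base composition: the median GC content of the summit windows of called regions was 47.3% to 47.8% in proestrus controls and 45.3% to 46.8% after cocaine. Regions lost in proestrus had a median GC content of 49.3% and those gained 40.3%. The median over the members' variable regions was 44.5% beside 44.3% over all variable regions. Whether base composition has a part in the difference was not tested.

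**Figure D3:**
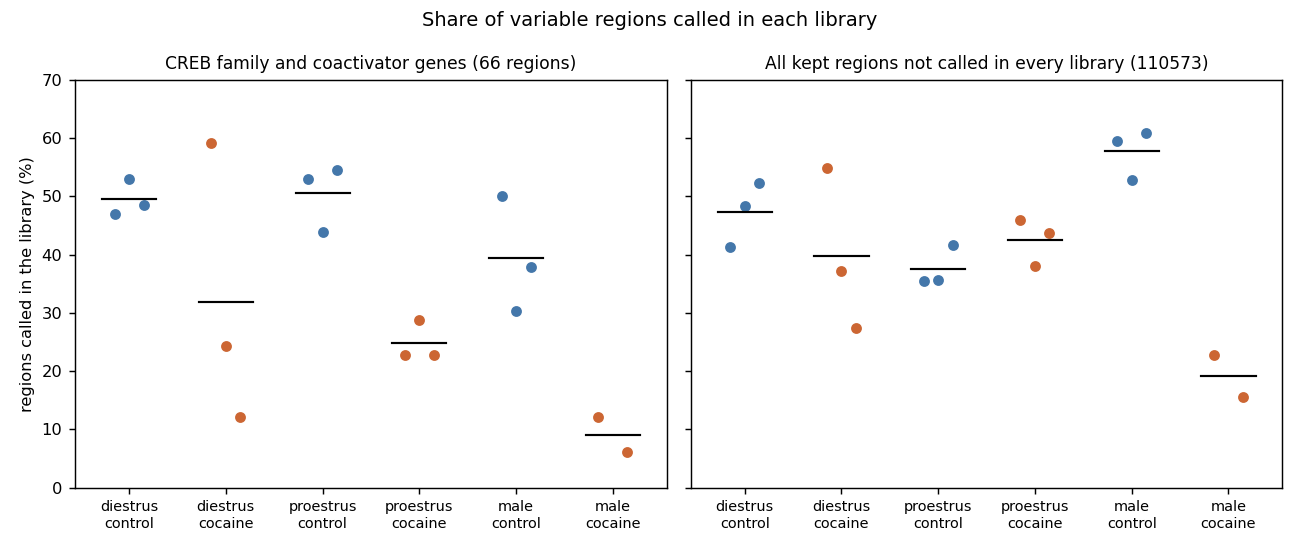
Percent of variable regions called in each library, by group, for the 66 member regions (left) and for all 110573 variable regions (right), with bars at group means. In proestrus the members fall from a mean of 50.5% to 24.7%, while all variable regions go from 37.6% to 42.5%, and diestrus cocaine library 1 sits at 59.1% of the member regions.

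By gene, Crtc1 had 8, 7 and 12 of its 13 variable regions called in proestrus controls and 3, 3 and 2 after cocaine. Of the 13, 5 were kept only through the proestrus controls, and among the 7 kept through a group outside proestrus the calls were 6, 3 and 6 in controls and 1, 3 and 1 after cocaine, with overlap. In males it had 4, 2 and 3 against 0 and 0. Crebbp had 7, 4 and 3 of 9 in proestrus controls and 1, 2 and 1 after cocaine, and 4, 7 and 8 against 6, 2 and 0 in diestrus. Creb1 differed from these, with 7, 1 and 8 of 16 in diestrus controls and 10, 7 and 6 after cocaine, and 9, 7 and 8 against 6, 4 and 10 in proestrus. In males Creb1 had 8, 7 and 7 in controls and 3 and 2 after cocaine. Atf1 had 3, 4 and 4 of its 7 in diestrus controls against 3, 0 and 0 after cocaine, and 4, 3 and 3 against 1 and 0 in males. Crtc3 had 6, 2 and 6 of its 7 in male controls against 1 and 0 after cocaine. The filter bears on these counts too. Among regions kept through a group outside males, Atf1 had 2, 2 and 1 of 5 in male controls against 1 and 0. Crtc3 then had 4, 0 and 4 of 5 against 1 and 0, so both overlapped. Creb1 then had 6, 5 and 6 of 14 against 3 and 2, and Crtc1 was unchanged. Among the 8 Crebbp regions kept through a group outside proestrus, proestrus counts were 6, 3 and 3 against 1, 2 and 1. Those of the 14 such Creb1 regions were 8, 6 and 6 against 6, 4 and 8. Among regions kept through a group outside diestrus, Atf1 had 1, 2 and 2 of 5 in diestrus controls against 1, 0 and 0. Crebbp then had 3, 4 and 5 of 6 against 5, 2 and 0, and Creb1 had 6, 1 and 6 of 12 against 7, 5 and 4. Between them Crem, Atf3 and Ep300 had 9 variable regions, and Atf4 had none.

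A region was counted as lost when it was called in every control library of a stratum and in no cocaine library, and as gained in the reverse case. In diestrus 1 of 92 member regions was gained (1.09%, against 1.16% of all kept regions) and 1 lost (1.09%, against 1.26%). In proestrus 0 were gained (against 2.45%) and 4 lost (4.35%, against 1.64%). In males 0 were gained (against 1.66%) and 8 lost (8.70%, against 16.8%). With 3 libraries against 3 an exact test cannot go below p = 0.1, so these separations carry no p. They involve 13 regions, whose peaks had fold enrichments from 2.18 to 4.87 with a median of 2.86. Separations too depend on the filter. Of the 66 variable member regions, 7 (10.6%, against 20.2% of all variable regions) reached 2 calls only in male controls. Among the male losses these include the Atf1, Creb1 and Crtc3 introns named below, for which fewer than 2 male cocaine calls are built in. The Creb1 region gained in diestrus likewise reached 2 calls only after cocaine in diestrus.

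The region with the smallest p in a test of calls lay at Atf1, a close relative of CREB1 that dimerises with it. The region chr15:100230508-100231251, 2998 bp into the gene and within 1 kb of the start of another Atf1 transcript, was called in 8 of 9 control libraries and in 0 of 8 cocaine libraries. Its fold enrichments were 3.10, 2.68 and 2.70 in diestrus controls, 3.17, 2.78 and 2.94 in proestrus controls, and 2.93 and 2.75 in male controls 1 and 2. It was lost in both diestrus and proestrus, as were 0.0339% of all kept regions, and 0.0332% were called as often in controls and in none after cocaine. Fisher's exact test over the 17 libraries gave p = 0.000411, which did not pass after adjustment over all 64304 regions tested (adjusted p = 0.145). The adjacent Atf1 promoter, which ends just before this region, did not pass in any cocaine contrast. Cocaine libraries had peaks just outside the lost region. Proestrus cocaine 1 had one at 2.32 to 2.62 kb from the start and diestrus cocaine 1 one at 3.65 to 3.88 kb. The count of 0 of 8 thus depends on the edges of the merged region. A further Atf1 intron region (chr15:100235334-100235993) was called in the 3 male controls, at 4.72, 3.17 and 4.72, and in no other library.

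**Figure D4:**
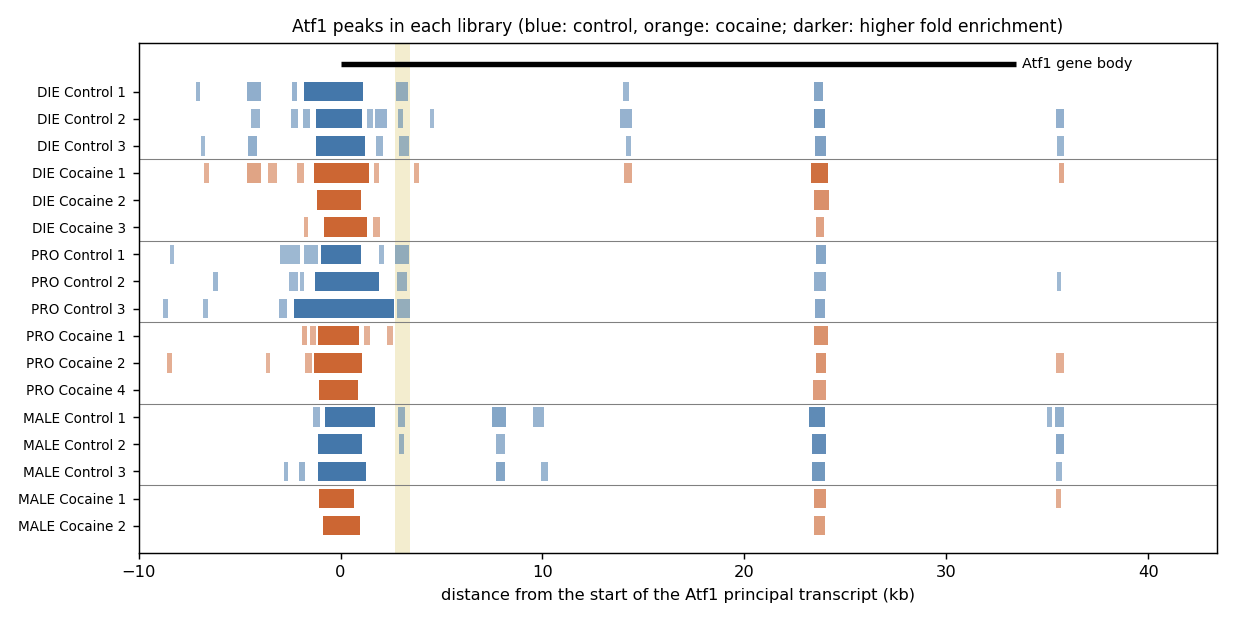
Peaks of each of the 17 libraries along Atf1, drawn by distance from the start in kb, with the lost region shaded. Peaks stand in the shaded region in 8 of 9 control libraries and in 0 of 8 cocaine libraries, beside a promoter peak in every library.

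Creb1 held 4 of the separated regions. The region gained in diestrus (chr1:64609847-64610385) lies downstream of Creb1, inside the neighbouring gene Mettl21a, and was called at 3.09, 4.53 and 2.87 after cocaine and in no diestrus control. It was also called in proestrus control 1, proestrus cocaine 4 and male control 1, at 2.43, 2.83 and 2.55. Close by, chr1:64614043-64615275 was lost in proestrus (2.64, 3.25 and 2.65 in controls) and chr1:64610471-64611447 in males (3.19, 3.31 and 2.41 in controls). The latter was called in all 3 diestrus cocaine libraries, at 3.21, 3.14 and 3.45. A Creb1 intron region (chr1:64575734-64576314) was called in the 3 male controls, at 2.93, 3.03 and 2.74, in diestrus cocaine 1 at 2.73, and in neither male cocaine library.

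Of the coactivators, an intronic Crebbp region (chr16:4201162-4202557) was lost in proestrus, with 2.75, 2.44 and 2.18 in controls. It was also called in the 3 diestrus controls, at 2.84, 2.90 and 2.70, and in diestrus cocaine 1 at 3.44, but in no male library. A Crtc1 intron region (chr8:70408156-70409105) was lost in proestrus, with 2.53, 2.78 and 2.27 in controls, while in diestrus it was called in 2 control and 2 cocaine libraries. In males a region downstream of Crtc1 inside the gene Comp (chr8:70379118-70381785, 4.46, 2.75 and 4.17 in controls) was lost, although it was called in all female libraries but diestrus cocaine 3. The region upstream of Crtc2 inside Slc39a1 (chr3:90249431-90252023) was likewise lost in males (2.93, 3.17 and 2.96 in controls) and called in all female libraries but proestrus cocaine 4. Crtc3 lost 2 intronic regions in males, chr7:80602516-80602923 (2.55, 2.89 and 2.85) and chr7:80637179-80637813 (3.06, 2.62 and 3.07), each of which was called in only 1 female library. At Atf3 the intron region chr1:191202534-191202993 was lost in males (3.82, 2.75 and 2.31 in controls) and was called in 8 of 9 controls and 3 of 8 cocaine libraries overall. Ep300, Crem and Atf4 had no separated region.

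**Figure D5:**
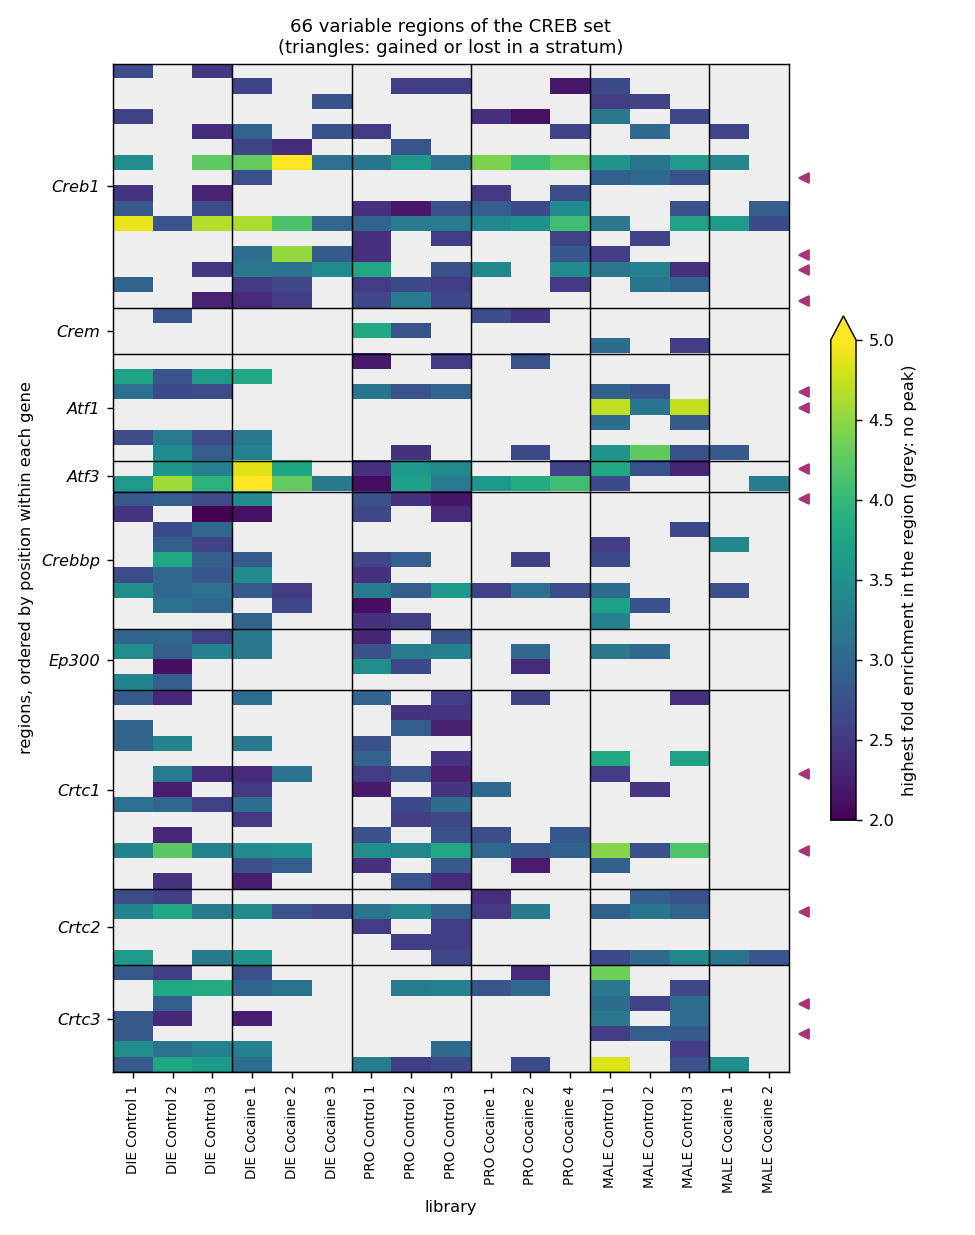
Calls of the 66 variable member regions (rows, by gene) in the 17 libraries (columns, by group), with fold enrichment as colour and triangles at regions gained or lost in a stratum. The cocaine columns of proestrus females and males are emptier than their control columns, and diestrus cocaine library 1 is as full as the controls, with 39 regions.

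Over all 17 libraries, 45 member regions could be tested by Fisher's exact test. At an unadjusted p under 0.05, 5 were called less often after cocaine (11.1%, against 9.23% of all tested) and 0 more often (against 3.81%). After adjustment 0 passed in either direction, as did 0% of all. Besides Atf1, the 5 comprised an Ep300 intron region (chr15:81590744-81591446, 8 of 9 controls against 2 of 8 cocaine libraries, Fisher's exact p = 0.0152, adjusted p = 0.278) and the Crebbp and Atf3 introns above (each Fisher's exact p = 0.0498, adjusted p = 0.382). The last was a region downstream of Crtc3 (chr7:80583998-80584628), with the same p and calls in 8 of 9 controls and 3 of 8 cocaine libraries.

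Diestrus cocaine library 1 weighed on the call counts. Without it 10 member regions were lost in diestrus in place of 1, among 7.33% of all kept regions, and 8 of 39 were called less often by Fisher's exact test at an unadjusted p under 0.05, against 12.7% of all. Without proestrus control 1 the proestrus losses were 11 of 86 in place of 4 of 92, against 3.89% of all kept regions, and without proestrus control 2 they were 8 of 84, against 3.46%. Without male control 2 the male losses were 14 of 91 in place of 8 of 92, against 24.7%. Repeats were more frequent in the members' variable regions: 13 of 66 windows (19.7%) were annotated as repeat over more than 50% of their bases, against 6.48% of all variable regions. Among the separated regions the Crtc2 window is 75.1% repeat, the male Atf1 intron 71.1% and the Crebbp intron 52.2%. The part of repeats in these calls was not tested.

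Between control groups, calls also separated by sex and stage. The diestrus controls held 2 Atf1 regions (chr15:100223195-100223903 and chr15:100241649-100242262) that no proestrus control held (2.17% of 92, against 3.96% of all), and 0 regions separated in the reverse direction (against 0.792%). Against male controls, 6 regions of Atf1, Crebbp, Crtc1 and Ep300 were called in diestrus controls only (6.52%, against 3.02%), and 2 in males only, in Creb1 and Atf1 (2.17%, against 9.05%). Against male controls, 2 regions of Creb1 and Crebbp were called in proestrus controls only (2.17%, against 1.42%), and 4 of Creb1, Atf1 and Crtc3 in males only (4.35%, against 10.5%). These comparisons share control libraries with each other and with the cocaine comparisons.

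Most promoters of the wider pathway were also called in all 17 libraries, as were 53.2% of the promoters of protein-coding genes. Of 15 CREB/ATF relatives, 11 promoters were called in all 17 libraries and those of Creb3l1, Creb3l4, Creb5 and Batf in none. All 20 promoters of kinases and phosphatases acting on CREB or its coactivators were called in every library. Of 18 textbook CREB targets 14 were, while the neuropeptide genes Sst and Vip were called in none, Bdnf in 5 and Pdyn in 16.

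In diestrus Penk, the proenkephalin gene and a CREB target of indirect pathway neurons, was higher by 0.90 (SE 0.16, limma adjusted p = 0.00191), the single target of 14 tested to pass. Of all regions tested in diestrus, 6.16% were higher and 4.9% lower, which is the share to set beside the counts of these lists. Of 20 kinases and phosphatases, Prkacb (0.51, limma adjusted p = 0.0384) and Prkar2b (0.44, limma adjusted p = 0.0452), a catalytic and a regulatory subunit of protein kinase A, were higher. The phosphatase gene Ppp1ca was lower (-0.59, limma adjusted p = 0.0286). The stress factor Atf5 was lower in diestrus (-0.59, limma adjusted p = 0.0349) and in proestrus (-0.67, limma adjusted p = 0.0375), the 1 of 11 relatives to pass in either stage. In proestrus 0 of 20 kinases and phosphatases and 0 of 14 targets passed, where 1.55% of all regions were higher and 1.85% lower. In males Atf6b (0.58, limma adjusted p = 0.0299) and Crebrf (0.53, limma adjusted p = 0.0428) were higher among the 11 relatives. There 0 of 20 kinases and phosphatases and 0 of 14 targets passed, while 5.56% of all regions were higher and 4% lower. Over the mean of strata Camk4 (0.31), a calcium-dependent CREB kinase, and Penk (0.30) were higher. They were 1 of 20 kinases and phosphatases and 1 of 14 targets, where 7.95% of all regions were higher.

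The effect in males minus the mean effect in females was higher at 3 of 11 relatives, 5 of 20 kinases and phosphatases and 3 of 14 targets, where 11.9% of all regions were higher and 6.53% lower. The targets were Fosb (0.69), Per1 (0.79) and Sik1 (0.60), and Penk was lower (-0.61). Sik1 is also among the kinases, so its promoter is counted in both lists, here and in the contrast of controls. Among controls, males minus females gave 0 higher and 3 lower relatives, 0 higher and 3 lower kinases and phosphatases, and 2 higher and 4 lower targets, where 10.5% of all regions were higher and 14.4% lower. The higher targets were Nr4a2 and Crh and the lower ones Fosb, Per1, Sik1 and Dusp1. The differences between effects too are relative to library medians, which moved by -0.55 in that contrast.

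The promoters whose centred enrichment most resembled that of the internal Crem promoter over the 17 libraries were Calhm5 (Pearson's r = 0.874), Brms1l (0.797) and Mcm5 (0.787), of 10092 compared. For Atf3 they were Ago2 (0.844), Ccdc141 (0.740) and Dcstamp (0.721). These are descriptions of 17 libraries that share groups and depth.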

How the data were processed

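ATAC-seq was made from 17 libraries of sorted neuronal nuclei. The authors aligned trimmed reads to mm10 with BWA and called peaks per library with MACS2. Tool versions and peak calling options are not given in the sources used here, and DESeq2 and featureCounts are named in the submitters' notes, but no counts per region were used here, so no count model was run. The deposited peaks give a score, a fold enrichment (a ratio of summit pileup to background), -log10 p-values and -log10 q-values. Fold enrichments of a library were all whole multiples of a single step, so the background was a single value per library. The authors' peaks reach down to a -log10 q of 1.31 to 1.64. The study's own read totals per library were not used here, so the depth behind a value is given only as the range of background pileups over libraries. A weak region is close to the calling limit in every library.

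Peaks overlapping by at least 1 bp were merged over all libraries with Python 3.11.15 (pandas 2.3.3, scipy 1.17.1), and regions called in at least 2 libraries of some group were kept. Promoters were regions within 1 kb of the principal transcript start. Gains and losses were counted from calls, Fisher's exact test (two-sided) was run on the regions called in 4 to 13 libraries, and limma 3.58.1 in R 4.3.3 was fitted to log2 fold enrichment over the 36847 regions called in all libraries, with a mean per group, library medians centred, and Benjamini-Hochberg adjustment over all of them. Motifs and lower case (repeat) bases were read within 100 bases of each region's highest summit from the reference of the same build. RefSeq promoters on chromosome 18, where Crem lies, were left out. The others matched 8 of the 10 members by symbol, all but Crem and Crtc2. The scripts were tested on simulated data. At most 0.0728% of intervals were identical between any pair of libraries, so each library counted once. Group pairs shared a mean Jaccard overlap of calls of 0.713 within groups (16 pairs) and 0.590 between groups (120 pairs).

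All members are named, with their promoters, the internal Crem promoter, all separated regions, the regions past an adjusted p of 0.05 and the strongest region outside promoters. The members and the gene lists were chosen with earlier results of these data known. Comparisons of each stratum are treatment within sex and stage, and the alternatives tried are described after the results.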

Additional observations from a re-analysis of the deposited data

Results flagged for a closer look

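Cocaine effects that differed between males and females by the interaction test were found at 2 of 26 member regions, both higher in males (7.69%, against 11.9% of all regions tested). At the Atf4 promoter the centred log2 effect in males minus the mean effect in females was 0.67 (limma adjusted p = 0.0221). At the region downstream of Crebbp, at the Trap1 promoter, it was 0.86 (limma adjusted p = 0.00887). Before centring the values were 0.12 and 0.31, and each call is lost without either male cocaine library.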

How the results depend on the processing

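The calls of weak regions depended on the peak threshold. With only peaks of a -log10 q of at least 5, proestrus losses, male losses and regions called less often by Fisher's exact test at an unadjusted p under 0.05 were 0 each. With the same number of strongest peaks in each library, diestrus gains and losses, proestrus losses and male losses were 0, male gains were 1 and regions called less often were 1. Where peaks had to cover at least 50% of a region, diestrus gains and losses were 0 and proestrus losses 2. Under the first 2 settings none of the 13 separated regions stayed separated. Without the 10 kb on either side, diestrus gains were 0 and male losses 5. The cause was not tested.

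Leaving out 1 library at a time gave 1 to 3 diestrus gains and 1 to 10 losses, 0 to 2 proestrus gains and 4 to 11 losses, and 0 male gains and 8 to 14 losses. It gave 0 regions called more often and 2 to 8 called less often. The numbers of member regions past the limma threshold ran from 0 to 7 in diestrus, 0 to 2 in proestrus, 0 to 1 in males, 0 to 3 over the mean of strata, 0 to 9 for the sex difference in effect, and 1 to 6 for sex and 0 for stage among controls.

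Quantile normalization gave 4 member regions in diestrus, 0 in males, 2 over the mean of strata and 7 for sex among controls. With -log10 p in place of fold enrichment there were 4 in males, 2 over the mean and 5 for the sex difference in effect. With the highest peak whose summit lay within 1 kb of the start there was 1 in diestrus and 0 over the mean of strata, where the Crtc3 difference reversed to 0.10 (an alternative chosen after seeing the data). Autosomes alone gave 2 over the mean of strata, and fits of only the 2 groups compared gave 0 in diestrus and 4 in males. The limma counts of this section are given without the share of all regions under the same setting. They describe only how far the calls moved.

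With the replicate number as a block, 4 member regions passed for the sex difference in effect in place of 2, and Crtc3 over the mean of strata was -0.34 (limma adjusted p = 0.0597). The numbers do not pair the libraries: deviations of same-numbered libraries had a median correlation of -0.01 over 36 pairs, and 7 of 17 libraries correlated best with their own number.

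The filter on regions was varied after seeing the data. Over the member regions kept through a group outside the stratum compared, the mean share called was 45.9% in diestrus controls, in place of 49.5%, and moved by less than 1 SD in the other groups. Over all 194 merged member regions not called in every library, with no filter, it was 24.7% in diestrus controls and 18.4% (SD 18.5) after cocaine. It was 25.8% in proestrus controls and 12.2% after cocaine, and 15.6% in male controls and 3.09% after cocaine. Over all 244342 such regions of the data set, control and cocaine shares were 26.04% and 22.5% in diestrus. They were 21.5% and 23.4% in proestrus, and 30.5% and 11.6% in males. The male share was thus lower after cocaine in both sets.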
